A study of Mus musculus with 10 samples.

Results

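Cytochrome P450 enzymes of family 2 outside the classical Cyp2b and Cyp2c drug-inducible subfamilies were followed in mouse liver: Cyp2a4, Cyp2a5, Cyp2a12, Cyp2a22, Cyp2e1, Cyp2f2 and Cyp2g1. They were chosen by gene symbol in the platform's probe annotation, and 6 of the 7 had a probe set, out of 19324 symbols on the array. Those 6 genes were read by 5 of 45037 probe sets that are not array controls, because Cyp2a4 and Cyp2a5 share a single one. Cyp2a22 RNA is not analysed here. The livers came from 10 male B6C3F1/Crl mice, offspring of C57BL/6 males and C3H/He females, aged 29 to 32 days on receipt and settled for 5 days. For 28 days 5 animals received phenobarbital at 0.05% (w/v) in their water, and another 5 were the controls. Each liver gave 1 array of whole-liver RNA, and the question was which transcripts differed between treated and control livers.

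Microsomal P450s oxidise drugs, toxins and steroids in the endoplasmic reticulum with electrons passed on from P450 reductase and cytochrome b5. Phenobarbital acts in hepatocytes mainly by activating CAR (gene Nr1i3), a nuclear receptor that switches on Cyp2b10 and other drug-metabolising genes. Cyp2a5 hydroxylates coumarin and nicotine, and its close paralog Cyp2a4 hydroxylates testosterone and is higher in female than in male mouse liver. Cyp2a12 is a further steroid hydroxylase of the same subfamily. Cyp2e1 oxidises ethanol, paracetamol and other small molecules in hepatocytes around the central vein, Cyp2f2 oxidises naphthalene and lies in liver mostly around the portal vein, and Cyp2g1 is best known from the olfactory mucosa.

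The Cyp2a4 and Cyp2a5 genes are near copies of each other, and this sets what the arrays can tell. Their sequences before the annotated transcription start are printed with those of Cyp2a12, the paralog that has a probe set of its own, since the shared probe set and the Cyp2a12 probe set moved by different amounts. The sequences are RefSeq's for GRCm38.p6, read 5′ to 3′ on the plus strand, and 6 of the 7 genes had an entry. In Cyp2a4 (chr7:26306943-26307191) and Cyp2a5 (chr7:26835089-26835337) capitals mark the bases that differ between them. In Cyp2a12 (chr7:27028840-27029089) capitals mark TATAAA and CCAAT, the latter read on the opposite strand.
Cyp2a4: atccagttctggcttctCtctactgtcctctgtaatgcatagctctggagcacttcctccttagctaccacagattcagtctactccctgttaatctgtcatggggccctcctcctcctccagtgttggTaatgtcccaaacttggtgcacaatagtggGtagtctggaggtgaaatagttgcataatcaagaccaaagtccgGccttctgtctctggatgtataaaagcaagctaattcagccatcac
Cyp2a5: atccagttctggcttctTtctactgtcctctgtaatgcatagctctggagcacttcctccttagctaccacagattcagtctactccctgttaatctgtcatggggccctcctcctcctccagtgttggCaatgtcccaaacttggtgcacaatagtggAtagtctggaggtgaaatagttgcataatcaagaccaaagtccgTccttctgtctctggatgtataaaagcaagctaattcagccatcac
Cyp2a12: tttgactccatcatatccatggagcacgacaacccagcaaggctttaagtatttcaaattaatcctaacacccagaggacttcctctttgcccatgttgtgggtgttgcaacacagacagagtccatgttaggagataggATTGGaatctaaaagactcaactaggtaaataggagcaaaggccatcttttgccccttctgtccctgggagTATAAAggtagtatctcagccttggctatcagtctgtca

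The Cyp2a4 and Cyp2a5 runs differed at 4 of 249 bases and were 98.4% identical. With positions counted from 1 at the 5′ end of the printed runs and the Cyp2a4 base first, the differences were C18T, T130C, G160A and G204T. A search of the 250 bases before the start on both strands found 3 motifs in each of the pair. TATAAA, the TATA box, began 28 bases before the start in Cyp2a4 and 29 in Cyp2a5. TTGCATAA, an element of the type bound by bZIP factors such as C/EBP and the clock output factor DBP, began 70 and 71 bases before it. CAAAGTCC, an element of the type bound by the liver receptor HNF4, began 55 and 56 bases before it. None of the 4 differences lay inside these matches, and the motifs do not overlap each other.

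Among the 32851 RefSeq windows of this length, 12.4% held TATAAA, 0.694% held TTGCATAA and 1.2% held CAAAGTCC. The Cyp2a12 window held TATAAA, 39 bases before the start, and neither of the other 2. CCAAT, held by 33.8% of windows, was found in Cyp2a12 and at 2 places in Cyp2e1, which also held TATAAA 31 bases before its start. The Cyp2f2 window held AGGTCA, a nuclear receptor half-site found in 14% of windows, and no TATAAA match. The letters CACGTG (6.02% of windows) and TGACNNNGC (10.2%), the core of the element bound by NRF2, matched in none of the 6 genes. The Cyp2a22 window was 88.8% identical to that of Cyp2a12 over 242 aligned positions. The motifs were a fixed list of letter strings and near matches were not searched. The shares of windows therefore do not measure how unusual a match, or its absence in Cyp2a12, was. These matches are descriptions of the letters and were not tested as binding sites.

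Phenobarbital-treated livers held more Cyp2a4/Cyp2a5 and Cyp2g1 RNA, by 4.14-fold and 2.68-fold, while Cyp2e1 and Cyp2f2 did not pass the test and Cyp2a12 stood slightly higher without passing. The values were compared on the deposited log2 scale, where a difference of 1 is a doubling, by limma across all 45037 probe sets with Benjamini-Hochberg adjustment at 0.05. Of the 5 probe sets 2 passed, both higher, where 18.7% of all probe sets passed, 7.7% higher and 11.0% lower. Both also rose at least 2-fold, as did 0.26% of all probe sets, counting only those that passed. In 3 of the 5, every treated liver lay above every control liver, against 5.29% of all probe sets.

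The arrays themselves were not alike between the groups. Poly-A spike-ins, bacterial RNAs added before labelling, averaged between 7.77 and 8.64 for 4 of the controls, while control replicate 4 had 6.395 and the treated arrays had 5.755 to 6.58. The spike-in set was entered as a block, which leaves control replicate 4 as the control of its set, and the resulting within-set value is given for the 5 probe sets and their pairs, with counts of calls under the block for the gene lists. With this block 0.269% of all probe sets were called higher and 0.389% in either direction. Array medians lay between 5.42 and 5.5, and the number of arrays limits the precision. The 3′ minus 5′ log2 difference of the actin control probe sets, a sign of RNA quality, was 1.46 to 1.78 in those 4 controls, 1.28 in control replicate 4 and 1.19 to 1.33 in treated livers. For Gapdh it was -0.15 to -0.03 in all controls and -0.28 to -0.21 in treated livers, without overlap and with control replicate 4 on the control side. The part of the spike-in set and of RNA quality in the changes was not tested.

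The shared Cyp2a4/Cyp2a5 probe set (1422230_s_at) read 12.13, 11.60, 11.72, 12.26 and 11.80 in control replicates 1 to 5. It read 14.01, 14.02, 13.94, 13.88 and 13.90 in phenobarbital replicates 1 to 5. The groups were separated by 1.62 between the highest control and the lowest treated liver, and control replicate 4 was the highest control. The group means were 11.90 ± 0.28 and 13.95 ± 0.06 (SD, n = 5 each), so the treated livers also lay closer together. The log2 difference was 2.05 ± 0.11 (SE), with a 95% interval of 1.80 to 2.30 and a limma adjusted p of 4.12e-07. It ranked 37th among all rises. Within the spike-in set it was 1.69 ± 0.16 (SE, limma adjusted p = 0.000569), and it lay between 1.97 and 2.14 with any 1 liver left out. The annotation gives this probe set to both genes, so the share of each gene in the rise is not resolved, and in whole tissue more expressing cells and more RNA per cell cannot be told apart.

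Cyp2g1 (1449565_at) was low on the scale in controls, at 6.23, 5.43, 6.03, 6.02 and 6.09 in replicates 1 to 5. In treated livers it read 7.31, 7.59, 7.55, 7.34 and 7.11. All treated livers lay above all controls, and control replicate 2 lay below the other controls. The means were 5.96 ± 0.31 and 7.38 ± 0.20 (SD, n = 5 each). The log2 difference of 1.42 ± 0.14 (SE, 95% interval 1.12 to 1.72, limma adjusted p = 7.93e-05) was 1.36 within the spike-in set, where it passed at an adjusted p of 0.0424. Without control replicate 2 it was 1.29 and still passed. In controls 57.8% of probe sets read lower than this one and in treated livers 75.5% did. Detection calls were not used here, so a level near the middle of the scale is not shown to lie above background.

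Cyp2a12 (1418821_at) read 12.95, 12.90, 12.96, 13.05 and 12.97 in control replicates 1 to 5. The treated livers read 13.09, 13.20, 13.16, 13.15 and 13.11. The groups did not overlap, by a margin of 0.04 between control replicate 4 and phenobarbital replicate 1. The log2 difference was 0.18 ± 0.06 (SE, 95% interval 0.05 to 0.30), which did not pass limma (adjusted p = 0.0522). It passed without control replicate 4 (0.20, adjusted p = 0.0324), and its within-set value was 0.09 (adjusted p = 0.759).

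Cyp2f2 (1448792_a_at) read 14.04, 13.88, 13.81, 14.16 and 14.01 in control replicates 1 to 5. In treated livers it read 14.05, 14.11, 14.04, 14.11 and 14.09. Here the groups overlapped, with control replicate 4 above every treated liver and control replicates 2, 3 and 5 below every one. Control replicate 1 equalled the lowest treated liver at 14.04. The means were 13.98 ± 0.14 and 14.08 ± 0.03 (SD, n = 5 each). The log2 difference of 0.10 ± 0.07 (SE, 95% interval -0.06 to 0.26, limma adjusted p = 0.36) turned to -0.08 within the spike-in set, also without passing.

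Cyp2e1 (1415994_at) read 14.35, 14.36, 14.39, 14.35 and 14.37 in control replicates 1 to 5 and 14.34, 14.37, 14.34, 14.38 and 14.39 in treated replicates 1 to 5. The values of both groups lay within 0.05 of each other, and the means were the same, 14.36 ± 0.02 (SD, n = 5 each). The interval of the log2 difference ran from -0.12 to 0.12, or 0.922-fold to 1.08-fold, and the within-set value was 0.01 (limma adjusted p = 0.974). These bounds hold on the deposited scale, near its top: the highest value in the table was 15.13, and 99.9% of probe sets read lower than this one. Of the 73 probe sets with a mean above 14, 4 passed. The median absolute log2 difference of the 73 was 0.05, against 0.134 over all probe sets, and the largest was 0.758. Among those that passed, the P450 gene Cyp2c50 rose from 13.69 to 14.45 and Cyp2c29 from 14.05 to 14.41, both to readings above that of Cyp2e1. Cyp2f2 in both groups, at 13.98 and 14.08, and Cyp2a4/Cyp2a5 in treated livers, at 13.95, lay close to 14, each above 99.8% of probe sets. How far changes and the spread between livers are compressed at this brightness was not tested, and this applies to the fold and the smaller treated SD of Cyp2a4/Cyp2a5 as well.

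**Figure D1:**
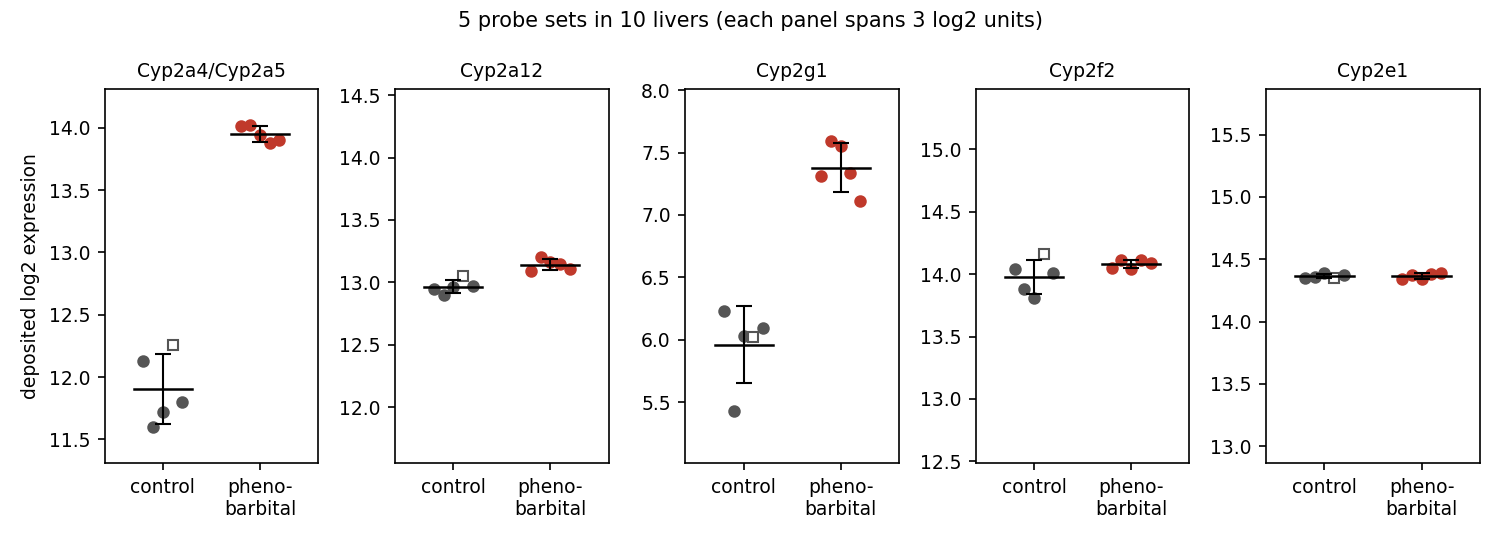
Deposited log2 expression (y axis) of the 5 probe sets in control (grey) and phenobarbital (red) livers, 1 point per animal, with mean and SD; the open square is control replicate 4, and every panel spans 3 log2 units. Cyp2a4/Cyp2a5 and Cyp2g1 show wide gaps between groups, Cyp2a12 a margin of 0.04, and Cyp2f2 and Cyp2e1 overlap.

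**Figure D2:**
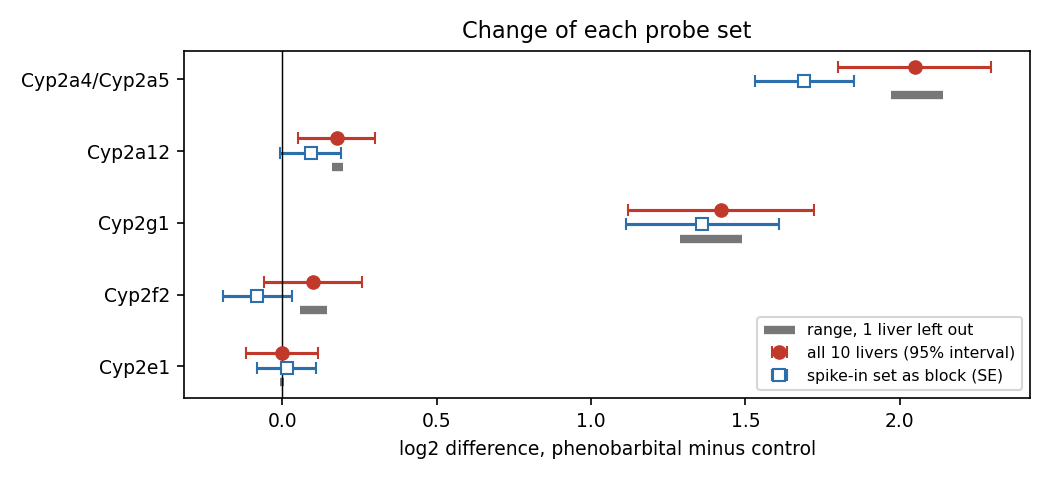
Log2 difference, phenobarbital minus control (x axis), for each probe set over all 10 livers with its 95% interval, with the spike-in set as a block with its SE, and as the range over omissions of 1 liver. The Cyp2a4/Cyp2a5 value falls from 2.05 to 1.69 with the block, and the Cyp2f2 value changes sign.

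Whether the probe sets changed by unequal amounts was tested on the difference between a pair within each liver, by an exact two-sided permutation test over all 10 pairs, whose smallest p with 5 against 5 is 0.00794. In 8 of the 10 pairs the test gave that smallest p, with 0.00992 after Benjamini-Hochberg adjustment. Cyp2a4/Cyp2a5 rose by 1.87 log2 units more than Cyp2a12, by 0.63 more than Cyp2g1, by 1.95 more than Cyp2f2 and by 2.05 more than Cyp2e1. Cyp2g1 rose by 1.24 more than Cyp2a12, 1.32 more than Cyp2f2 and 1.42 more than Cyp2e1. Cyp2a12 stood 0.18 higher relative to Cyp2e1 in treated than in control livers. Cyp2e1 read 14.34 to 14.39 in all livers, so a pair with it nearly repeats the change of the other probe set alone. Within these 8 pairs no treated liver overlapped the controls, which is the same fact as the smallest p. Within the low spike-in set, which holds 1 control and so allows no test, Cyp2a4/Cyp2a5 rose by 0.33 more than Cyp2g1 and Cyp2a12 by 0.08 more than Cyp2e1, against 0.63 and 0.18 over all arrays. The other 6 of the 8 kept their direction there, at -1.27 for Cyp2a12 minus Cyp2g1 and 1.35 to 1.77 for the rest. The other pairs did not pass: Cyp2a12 against Cyp2f2 differed by 0.08 (exact permutation p = 0.183, adjusted 0.203), and Cyp2f2 against Cyp2e1 by 0.10 (exact permutation p = 0.238, adjusted 0.238). A p that misses the threshold does not show that these changed alike. These are differences of log2 values read near the top of the scale for Cyp2e1, Cyp2f2 and treated Cyp2a4/Cyp2a5, and for Cyp2g1 at a level not shown to lie above background. Their order is that of the readings, and its relation to the order of the RNA changes was not tested.

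Apart from Cyp2e1, the genes lie in a single P450 cluster on mouse chromosome 7, and the changes differed along it. In RefSeq's order the cluster runs from Cyp2s1 through Cyp2b10, Cyp2b13, Cyp2b9, Cyp2a4, Cyp2b23, Cyp2b19, Cyp2g1, Cyp2a5, Cyp2a22, Cyp2a12 and Cyp2f2 to Cyp2t4, with a few other genes between. Of 13 P450 genes in this segment 10 had a probe set. Cyp2b10, the standard marker of CAR activity, rose from 6.47 ± 0.66 to 13.52 ± 0.04 (SD, n = 5 each), a log2 difference of 7.05 (7.57 with the block). Cyp2b9 and Cyp2b13, on the side of Cyp2a4 towards Cyp2b10, rose by 4.14 and 1.94 (within-set 5.26 and 1.49, of which that of Cyp2b13 did not pass). Cyp2b9 and Cyp2b13 had control means of 5.35 and 5.44, not shown to lie above background. Among P450 genes in this order, Cyp2a4 lies between Cyp2b9 and Cyp2b23, and Cyp2a5 between Cyp2g1 and Cyp2a22. Of these Cyp2b23 and Cyp2a22 are not analysed here.

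The cluster also held genes that did not pass. Cyp2b19, a skin enzyme that lies next to Cyp2g1, read 3.03 ± 0.18 and 3.13 ± 0.01 (SD, n = 5 each), near the bottom of the scale, and Cyp2s1 had a log2 difference of -0.05. The 4 genes of other families with a probe set, Nlrp9c, Nlrp4a, Nlrp9a and Egln2, had log2 differences of 0.19, 0.12, 0.05 and 0.02, and none passed. Of these only Egln2, an oxygen-sensing hydroxylase gene beyond Cyp2t4, read above the array medians, at 9.04 ± 0.06 and 9.05 ± 0.08 (SD, n = 5 each). Cyp2e1 lies elsewhere on chromosome 7, and the nearest genes with a probe set on either side, 5830411N06Rik and Syce1, differed by -0.06 and 0.10 without passing. Paralogs of the cluster are similar in sequence, and the extent of cross-hybridisation between them was not tested.

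**Figure D3:**
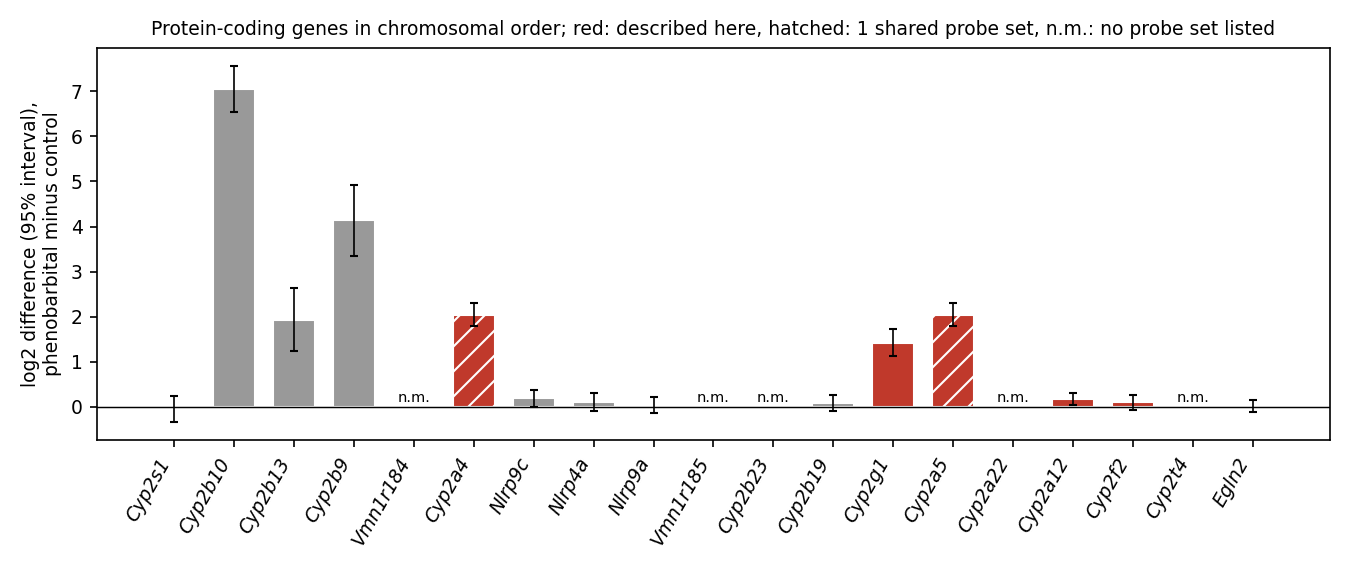
Log2 difference, phenobarbital minus control (y axis, bars with 95% intervals), for protein-coding genes of the chromosome 7 cluster in their order (x axis, no distances); red bars are the genes described here and the hatched pair is the shared Cyp2a4/Cyp2a5 probe set drawn at both genes. Rises of 1.42 to 7.05 sit at Cyp2b10, Cyp2b13, Cyp2b9, Cyp2a4/Cyp2a5 and Cyp2g1, with values of at most 0.19 at the other genes measured.

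In the rest of P450 family 2, 13 of 30 measured genes rose and 4 fell, with a median log2 difference of 0.10. Over all 18193 genes, each taken at its brightest single-gene probe set, 8.23% were called higher and 10.5% lower, with a median of 0.008. The same shares are the background for the lists that follow. After Cyp2b10 the rises were led by Cyp2c65 (6.86), Cyp2c55 (4.15) and Cyp2b9 (4.14), all called with the block as well. The 4 that fell were Cyp2c39 (-1.02), Cyp2c68 (-0.61), Cyp2j6 (-0.32) and Cyp2d40 (-0.20), the last of which kept its call in 1 of 10 omissions of a liver. With the block 8 of the 30 were called higher and 1 lower.

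Of 8 measured genes for electron transfer to these enzymes, 2 rose and none fell (median 0.15). The P450 reductase gene Por is not analysed here. Cyb5r3, the main cytochrome b5 reductase, rose from 12.48 ± 0.13 to 12.79 ± 0.09 (SD, n = 5 each) and Cyb5r2 from 5.05 ± 0.25 to 5.62 ± 0.19, and neither was called with the block. The Cyb5r2 control mean lay below the array medians and is not shown to lie above background. Cyb5b was not called at its brightest probe set, but 2 of its 3 probe sets were called higher. Cyb5a, which encodes cytochrome b5 itself, stood at 13.95 ± 0.03 in controls and 14.11 ± 0.03 in treated livers without overlap, and did not pass limma (adjusted p = 0.0531).

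Of 26 measured regulators known to act on these P450s or to carry the phenobarbital response, none rose and 3 fell, with a median of 0.01 that was -0.14 with the block, under which none was called. Counts are at each gene's brightest probe set, where 8.23% of all genes were called higher and 10.5% lower. Only 1 regulator was lower without control replicate 1, control replicate 3, phenobarbital replicate 2 or phenobarbital replicate 3, and 1 rose without phenobarbital replicate 1. Ppargc1a, a fasting-induced coactivator, fell from 8.27 ± 0.45 to 6.85 ± 0.34 (SD, n = 5 each), with a log2 difference of -1.42 (-0.92 with the block, not passing) and all 5 of its probe sets called lower. Nfic, a nuclear factor I gene, had a log2 difference of -0.40, with 1 of its 5 probe sets called higher and 1 lower, and lost its call in 5 of 10 omissions of a liver. The growth hormone receptor gene Ghr, at -0.21, kept its call in 1 of 10 omissions. Nr1i3 had a difference of -0.26 (limma adjusted p = 0.0858) and Nr1i2, which encodes the related receptor PXR, of 0.14 (0.236). Hnf4a, Nfe2l2 (the NRF2 gene) and Hnrnpa1, whose protein binds Cyp2a5 RNA, had differences of 0.09, 0.02 and 0.05, with limma adjusted p between 0.36 and 0.895. Of the 4 Hnf4a probe sets, however, 1 was called higher. Arnt, Ctnnb1 and Tef, not called at their brightest probe sets, each had 1 called higher, and Tef also 1 called lower.

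NRF2 is also known to act on Cyp2a5, and of 15 measured NRF2 targets 9 rose and none fell, with a median of 0.68. The largest rises were those of the glutathione transferase Gstm3, from 11.05 ± 0.28 to 13.83 ± 0.09 (SD, n = 5 each), of the efflux pump Abcc4 by 2.15, of Gsta2 by 1.21 and of Gstm1 by 0.97. These 4 were called with the block too, and 5 of the 15 in all. The other 6 did not pass at their brightest probe sets: Gclc (-0.35), Gclm (-0.19), Hmox1 (0.24), Slc7a11 (0.22), Osgin1 (0.49) and Mgst1 (0.01). Of the 2 Slc7a11 probe sets, however, 1 was called higher. Without control replicate 4 there was 1 lower target, Gclc, and without phenobarbital replicate 1 there were 2, Gclc and Gclm. NRF2 activity was not tested. The list was drawn up with earlier results of these livers known, so its direction is no independent evidence.

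Since Cyp2a4 is higher in females, sex-biased liver genes were counted in these male livers. Of 16 measured female-predominant genes 10 rose and none fell (median 0.45), and 3 were called with the block. Cyp2b9 rose by 4.14, Prom1 by 2.44, Abcc4 by 2.15, Cyp2b13 by 1.94 and the sulphotransferase Sult3a1 by 1.42. The first 4 had control means of 5.35, 5.40, 5.43 and 5.44, near the array medians and not shown to lie above background. Of the 16 genes 5 lay below the array medians. Cyp2b9, Cyp2b13 and Abcc4 are also in the lists of P450s or NRF2 targets. Of 20 male-predominant genes 1 rose and 3 fell (median -0.006, and 0.028 after median centring), and none was called with the block (median -0.15). After quantile normalisation and without control replicate 4, 2 rose, without phenobarbital replicate 2 none rose, and without that liver or control replicate 3 only 1 fell. The uptake carrier Slco1a1 fell from 12.60 ± 0.09 to 12.11 ± 0.07 (SD, n = 5 each), while Cyp4a12a rose by 0.26, a call lost without phenobarbital replicate 2 (0.24). Cyp7b1 and C8a, with differences of -0.50 and -0.29, lost their calls in 7 and 3 of 10 omissions of a liver. Stat5b, which carries the growth hormone signal behind these sex differences, had a difference of -0.34 (limma adjusted p = 0.146).

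Genes of the zones in which Cyp2e1 and Cyp2f2 lie changed in part. Of 21 pericentral genes 4 rose and 3 fell (median 0.00). Cyp1a2, a pericentral P450, rose from 13.08 ± 0.16 to 13.65 ± 0.05 (SD, n = 5 each), and Rhbg, an ammonium transporter gene, by 0.81. Lgr5, a receptor gene of Wnt signalling, had a difference of -1.05 on its brighter probe set and was called higher on its other one. The direction of Lgr5 is therefore uncertain. Znrf3, a Wnt regulator, fell by 0.65 on the log2 scale (-0.19 with the block). Glul, the glutamine synthetase of the innermost pericentral cells, stood at 12.51 ± 0.10 and 12.32 ± 0.13 without passing.

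Of 22 periportal genes 3 rose and 8 fell (median -0.17). Only 1 rose without control replicate 1, control replicate 2 or phenobarbital replicate 2, 3 or 4, and 5 fell without phenobarbital replicate 2. The risers Asl and Cdh1, with differences of 0.30 and 0.25, kept their calls in 2 and 4 of 10 omissions. Pck1, of glucose synthesis, fell from 12.80 ± 0.44 to 11.69 ± 0.47 (SD, n = 5 each) and Etnppl fell by 0.86 on the log2 scale, while Sult5a1 rose by 0.77. The urea cycle gene Ass1, on its 1 single-gene probe set, read 8.36 ± 1.1 in controls and 6.86 ± 0.24 in treated livers (SD, n = 5 each). Its log2 difference of -1.50 became 0.04 with the block, and control replicate 4, at 6.82, lay among the treated livers. Cps1, the first enzyme of that cycle, stood at 14.19 ± 0.01 and 14.13 ± 0.04. No gene of either zone was called with the block.

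Core clock genes and clock output genes were counted together, because DBP and its relatives act on Cyp2a4 and Cyp2a5. Of 17 measured, none rose and 3 fell: Clock (-0.44, in 3 of 4 probe sets), Cry1 (-0.38) and Usp2 (-0.24), of which Cry1 lost its call in 4 and Usp2 in 8 of 10 omissions. None of the 17 was called with the block (Clock -0.23, limma adjusted p = 0.566), 1 was lower after quantile normalisation, and 1 without control replicate 2, phenobarbital replicate 2 or phenobarbital replicate 4. Dbp itself read 6.05 ± 0.23 in controls and 6.31 ± 0.85 in treated livers (SD, n = 5 each), and did not pass. Phenobarbital replicate 5 read 7.76, against 5.54 to 6.27 in the other treated livers. With 1 liver left out the Dbp log2 difference lay between -0.10 and 0.45, so its direction is uncertain.

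**Figure D4:**
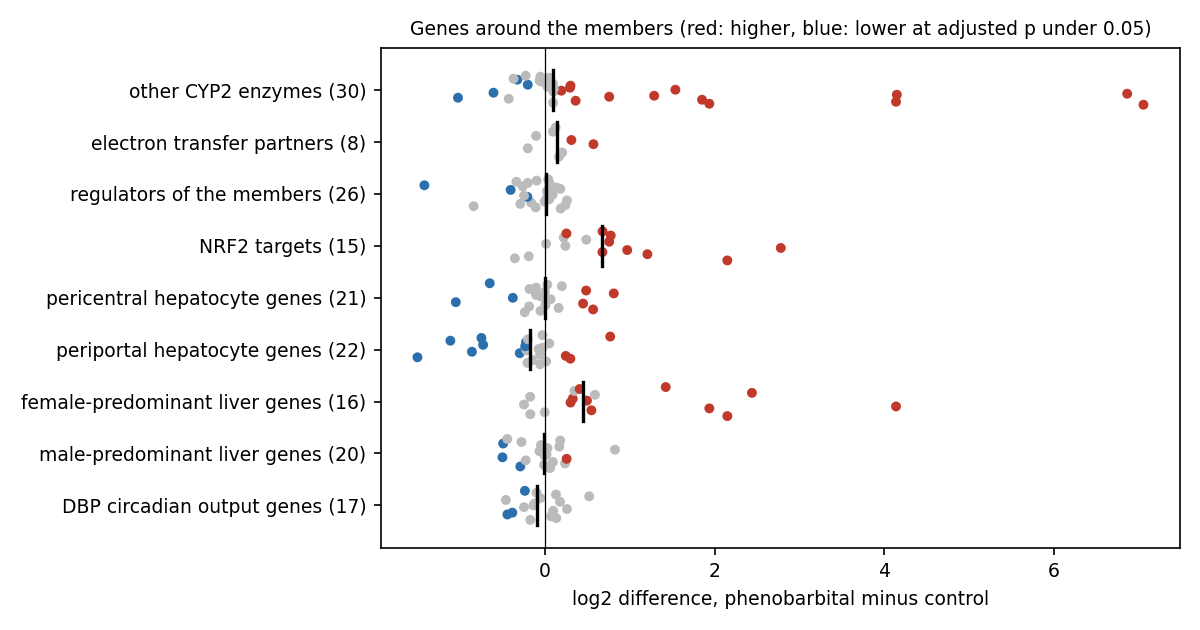
Log2 difference, phenobarbital minus control (x axis), of each measured gene in 9 lists (y axis, number of genes in brackets); red points were called higher, blue lower and grey not called, and black ticks are medians. The NRF2 and female-predominant lists have medians of 0.68 and 0.45, and the other medians lie between -0.17 and 0.15. The circadian list holds core clock genes as well as output genes.

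The tissue label was checked against markers. Of 9 hepatocyte markers 1 was called, Apob, lower (-0.20, in 2 of 10 omissions), and the mean level of the list lay between 14.50 and 14.52 in controls and between 14.44 and 14.47 in treated livers. Of 9 endothelial markers 6 were lower (list mean 8.30 to 8.72 in controls, 8.01 to 8.40 in treated livers). Of 9 stellate cell markers 5 were lower (8.60 to 8.79 against 8.16 to 8.55). Of 8 Kupffer cell markers 1 was lower (7.93 to 8.34 against 7.94 to 8.30), of 5 bile duct markers 1 was higher (4.78 to 5.12 against 4.93 to 5.05), and of 7 lymphocyte markers none was called (5.02 to 5.17 against 5.05 to 5.08). None of these was called with the block. The extraction text also mentions kidney, and 9 kidney markers had list means of 4.73 to 5.29 in controls and 4.83 to 4.98 in treated livers, with none called and 6 below the array medians. The part of these cell types in the changes was not tested.

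Across the 10 arrays, the genes whose values followed each probe set most closely were ranked by Pearson's r among single-gene probe sets brighter than the median. For probe sets that rose, a high r partly restates the difference between groups, so r of the deviations from the group means is given as well. Gstm3 was closest to Cyp2a4/Cyp2a5 (r = 0.998, deviations 0.961), followed by the imprinted non-coding RNA gene Meg3 (0.994, 0.866) and by Gstm1 (0.994, 0.815). Slc13a2, a citrate and succinate carrier gene, was closest to Cyp2g1 (0.989, 0.952), ahead of Pgap2 (0.983, 0.849) and Ammecr1l (0.981, 0.863). For Cyp2a12 they were Tmem51 (0.983), Ing5 (0.979) and Slc6a9, in that order, and for Cyp2f2 Plxnb2, Dhrsx and Hoxb2 (0.965, 0.965 and 0.961). For Cyp2e1, whose values span 0.05, they were Slc25a29, Ccdc186 and Gpt (0.893, 0.892 and 0.883). These coefficients are descriptions of 10 arrays that share 2 groups and 2 spike-in sets, each the highest of many.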

How the data were processed

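Whole-liver RNA (0.1 µg) was labelled with a 3′ in vitro transcription assay and hybridised to Affymetrix arrays, per the labels' protocols. The authors deposited log2 values, 2.34 to 15.13, whose scale was read from this range; GCOS is named in the submitters' processing notes, and the way probes were summarised and normalised was not given in the sources used here. Quartiles of the 10 arrays lay within 0.16 of each other, under the 0.3 set for renormalising, so values were used as deposited. Groups came from the labels, and each array is a separate animal.

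Of 45101 probe sets, 64 controls were left out of the tests; 34945 had 1 gene symbol, 932 several and 9160 none listed. Probe sets were tested singly with limma 3.58.1 (R 4.3.3; lmFit, eBayes, two-sided, Benjamini-Hochberg over 45037). Counts of listed genes used each gene's highest-mean probe set. On data simulated for this comparison with 45037 probe sets, changes of 4-fold were called in 99% of cases, those of 2-fold in 98%, and 61.6% at 1.4-fold. The simulation used each probe set's mean and spread with independent noise and changed few probe sets. Differences in spike-ins or RNA quality between groups, and compression at the top of the scale, were not simulated, so recovery on the real arrays may differ. Pairs were tested with scipy 1.17.1. The genes and lists were chosen with earlier results of these data known. Named genes are the members, up to 4 called genes of largest change per list, genes fixed by name (of which Por is not analysed here), cluster neighbours, and the 3 most similar genes for each. Cyp2c39, Cyp2c68, Cyp2j6, Cyp2d40, Sult3a1, Asl, Cdh1 and Apob were added after their values were seen. So were Gclc, Gclm, Hmox1, Slc7a11, Osgin1, Mgst1, Arnt, Ctnnb1, Tef, Cyp2c50, Cyp2c29 and Cyb5b. Alternatives were quantile normalisation, median centring, a brightness filter, 2 gene-level summaries, other variance settings, blocks and single omissions. RefSeq tables of GRCm38.p6 gave gene order and sequences; the arrays' build is not stated. Same-numbered animals were not paired (correlation of deviations -0.066 to 0.17).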

Additional observations from a re-analysis of the deposited data

Results flagged for a closer look

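One value stood apart from its group: Cyp2g1 read 5.43 in control replicate 2, 0.59 below the next control in a group that spans 0.80. The gap is 0.737 of the range, above Dixon's critical value of 0.71 for 5 samples. The same animal was also the lowest control for Cyp2a4/Cyp2a5 (11.60) and Cyp2a12 (12.90), where its gap was small. Among 10 groups checked, chance flags about 1 in 20.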

How the results depend on the processing

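The rises of Cyp2a4/Cyp2a5 and Cyp2g1 kept their direction and call in all 9 other settings and in all 10 omissions of a liver, with log2 differences of 1.69 to 2.14 and 1.29 to 1.49. Cyp2e1 passed in none of them (-0.009 to 0.034). Cyp2f2 passed in none and turned to -0.08 with the spike-in set as a block. Cyp2a12 passed after median centring (0.21), among the brighter probe sets, with 1 probe set per gene, averaging probe sets, and under a robust trended variance (0.18 each), and with array weights (0.19), at adjusted p of 0.00955 to 0.042, and over single omissions it lay between 0.16 and 0.20. The cause was not tested. With the replicate number as a replicate block, no call of the 5 changed (Cyp2a12 0.18, adjusted p = 0.102) and 3236 probe sets were higher and 5005 lower, against 3466 and 4959 without it. Probe sets called higher numbered 1943 among the brighter ones, 1696 with 1 probe set per gene, 1714 with their mean, 121 with the spike-in set block and 2078 to 4633 with 1 liver left out; lower, 2111, 2175 and 54 for the last 3 settings and 3231 to 6246. Fewer units are tested in the first 3. Higher calls were 41.1% of all calls, 52.5% after quantile normalisation, 55.1% after median centring, 32.5% among the brighter ones and 69.1% with the block. The low counts came without control replicate 2 (2265), control replicate 3 (2287) and phenobarbital replicate 2 (2078 and 3231). For pairs, single omissions gave 0.052 to 0.117 for Cyp2a12 minus Cyp2f2, passing without control replicate 3, and 0.051 to 0.148 for Cyp2f2 minus Cyp2e1, passing without control replicate 4; the other 8 kept their calls. Within the low spike-in set, an alternative chosen after seeing the data and without a test, Cyp2a4/Cyp2a5 exceeded Cyp2a12 by 1.598, Cyp2g1 by 0.33, Cyp2f2 by 1.77 and Cyp2e1 by 1.68, Cyp2a12 exceeded Cyp2e1 by 0.078, and Cyp2f2 minus Cyp2e1 was -0.094. The number of arrays, and the unknown background at the low end, limit small changes.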
